A study of Mus musculus with 16 samples.

Results

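MI763F, a compound that the study describes as a ligand of the constitutive androstane receptor (CAR), was given to mice during cholestasis induced with ethinylestradiol (EE), and its effect on liver messenger RNA was read across all genes. Of the 16 libraries in the series, 8 carry this comparison: 4 from EE mice that also received MI763F (EM) and 4 from EE mice without it (EV). They were chosen by their labelled group. EE was injected under the skin of EM mice at 10 mg/kg in propylene glycol on 7 days, and from day 2 they also took MI763F by gavage, 2.5 mg/kg on 6 days. EV mice received the same EE course only. The remaining 8 libraries come from mice without EE and stand beside the comparison where a value needs them: CM mice received MI763F on the same schedule, and CV mice received propylene glycol. All 16 libraries share the genotype labelled Humanized PXR-CAR-CYP3A4/3A7, which names human receptor and CYP3A genes carried by the mice, so the controls carry them too. Sex, age, strain background, and whether mice without MI763F were gavaged with its DMSO, PEG300 and corn oil formulation are not given in the labels used here. The labels do not say that each library is from a different animal, so the p-values cover only sample-to-sample spread, some of which may be technical.

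CAR is a nuclear receptor of hepatocytes that pairs with the retinoid X receptor and, once activated, raises transcription of genes for drug oxidation, conjugation and efflux. Cyp2b10 is its usual marker gene in mouse liver, and sulfotransferases, glucuronosyltransferases and efflux pumps that it shares with the pregnane X receptor (PXR) make bile acids and bilirubin more water-soluble and move them out of the cell. EE is a synthetic estrogen that slows bile flow in rodents and lowers the main bile acid uptake and export pumps. The comparison asks what the ligand does to a liver already under EE, a setting the study uses as a model of cholestasis of pregnancy.

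Genes of the Sult2a family, which encode sulfotransferases for steroids and bile acids, stood among the largest rises, and their start regions are shown for that reason. A window of 250 bases before the annotated start was read from RefSeq (GRCm38.p6, an earlier build than the one the counts were made on). It was searched on both strands for the nuclear receptor motif AGGTCA. Its variant AGTTCA was counted with it. So was the variant written GGGTCA. The remaining form counted is GGTTCA. The window was also searched for pairs of these motifs as direct repeats with 3, 4 or 5 bases between them, as an everted repeat with 6 bases between them, and as an inverted repeat with none. An inverted repeat without a gap has been described in rodent Sult2a start regions as a binding site for PXR and CAR with the retinoid X receptor. The Sult2a5 window holds such a repeat, GGGTCATGAACT, 167 to 156 bases before the start. Repeats of this kind stand in 24 of 32851 RefSeq windows of this length (0.0731%). Windows of 1 chromosome were left out of all these counts. Each of the Sult2a6, Sult2a4 and Sult2a3 windows holds a 12-base stretch that differs from it at 1 base, written with positions counted from 1 at its 5′ end: G1T in Sult2a6, G2A in Sult2a4 and C5A in Sult2a3. Stretches within 1 base of GGGTCATGAACT on either strand stand in 49 of the 32851 windows (0.149%), these included. The 12 bases were taken from the Sult2a5 window, so its own match is given. All of these genes lie on chromosome 7, and the bases beside the stretch are alike too. The matches are therefore not separate finds. In both Sult2a8 windows the nearest stretch differs at 4 bases. Sult2a1, Sult2a2 and Sult2a7 had no entry among the windows. The stretches follow with the 12 bases in capitals, on the gene's strand, from chr7:13623776-13623835 (plus strand), chr7:14255046-14255105 (minus), chr7:13989799-13989838 (minus, where the window begins close to the repeat) and chr7:14123203-14123262 (minus).
Sult2a5: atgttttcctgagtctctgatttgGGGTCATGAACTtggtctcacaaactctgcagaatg
Sult2a6: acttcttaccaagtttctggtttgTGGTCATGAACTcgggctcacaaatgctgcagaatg
Sult2a4: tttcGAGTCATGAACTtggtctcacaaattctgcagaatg
Sult2a3: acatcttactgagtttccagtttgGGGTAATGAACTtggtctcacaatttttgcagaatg

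The Cyp2b genes, the classical CAR markers, rose as well and are shown because their windows differ in the motif. In a global alignment with gaps, the Cyp2b10 and Cyp2b9 windows were equal at 177 of 240 aligned bases (73.8%), and the Cyp2b9 and Cyp2b13 windows at 248 of 250 (99.2%). The Cyp2b9 window (chr7:26173159-26173408, plus strand) and the Cyp2b13 window each hold 1 such motif, AGGTCA, 138 bases before the start, in capitals below, and the Cyp2b10 window (chr7:25897408-25897657, plus strand) holds none of the motifs searched.
Cyp2b10: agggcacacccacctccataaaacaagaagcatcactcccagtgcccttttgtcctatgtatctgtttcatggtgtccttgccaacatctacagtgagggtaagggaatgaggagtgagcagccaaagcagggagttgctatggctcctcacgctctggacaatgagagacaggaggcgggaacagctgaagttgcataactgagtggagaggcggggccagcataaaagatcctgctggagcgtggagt
Cyp2b9: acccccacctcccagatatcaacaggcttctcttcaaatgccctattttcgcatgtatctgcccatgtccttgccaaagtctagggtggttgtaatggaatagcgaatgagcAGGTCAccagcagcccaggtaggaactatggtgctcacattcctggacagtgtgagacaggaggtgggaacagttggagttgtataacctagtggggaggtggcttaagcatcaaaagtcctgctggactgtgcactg
Over the whole comparison, windows were found for 138 of the 195 genes that rose and 20 of the 23 that fell. Single motifs stood in 79 of 165 windows of genes that rose (47.9%) and in 13 of 30 windows of genes that fell (43.3%), against 38.6% of the 32851 RefSeq windows read. The inverted repeat stood in 1 of the 165 windows (0.606%), that of Sult2a5, and in no window of genes that fell. None of the direct repeats or of the everted repeat stood in a window of either set. These matches describe letters in a single short window per start and say nothing about binding. Sequence farther upstream was not read, so motifs there, for Cyp2b10 or any other gene, would not be seen.

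Estimated counts in the 8 EE libraries summed to between 14115384 and 20040199, and 12918 of the 13006 genes in the table were tested. Levels are CPM, counts scaled to a common library total after a correction for composition (TMM), whose factors ran from 1.10 to 1.13 in EM and from 1.17 to 1.23 in EV libraries. Hepatocyte markers summed to 41230 to 59330 CPM in EM and 35990 to 44860 CPM in EV libraries. Among the 8 EE libraries the first principal component (22.2% of the variance) placed EM replicates 2 to 4 at 20.2, 38.7 and 40.6, and all 4 EV libraries between -33.9 and -8.79. EM replicate 1 stood apart, at -7.67 on the first component and 51.1 on the second, outside the range of the other EM libraries on both. EV replicate 4 was at -39.9 on the second component, where the other EV libraries lay between -13.1 and 4.29. EM replicate 1 was the lowest EM library for 160 of the 195 genes that rose, whereas it was the lowest for 30.1% of all genes. The human-format identifiers ENSG00000143257, ENSG00000144852 and ENSG00000160868 were all counted. The first had 56.5 to 98 CPM in EM livers and 58 to 75.8 CPM in EV livers, the second 48.6 to 58 CPM in EM livers and 45.6 to 59.5 CPM in EV livers, and neither passed the test (adjusted p = 0.584 and 0.993). The mouse entry for CAR (Nr1i3) had 10.6 to 19 CPM in EM livers and 10.1 to 16.1 CPM in EV livers. That for mouse PXR (Nr1i2) had 9.9 to 10.6 CPM in EM livers and 9.77 to 11.8 CPM in EV livers. Whether reads of the human receptor genes were counted to these mouse entries was not tested.

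MI763F raised 195 genes (1.51% of those tested) and lowered 23 (0.178%) in EE livers, 218 in all (1.69%), at an adjusted p under 0.05 in edgeR's quasi-likelihood test, adjusted by Benjamini and Hochberg's method over 12918 genes. Genes past it are termed called, and fold changes are EM over EV on the log2 scale with the standard error (SE) of the fit; a rise or fall given without a unit is on that scale. At an unadjusted p under 0.05 there were 1642 genes (12.7%). The rise was mostly moderate: 59 genes rose by at least 1 on the log2 scale, 18 of them by at least 2, and the median of the genes that rose was 0.77. Of the 23 genes that fell, 5 fell by at least 1, and their median was -0.81, while the median of all genes was -0.0024. The 4 EM libraries lay above the 4 EV libraries for 179 of the 195 genes that rose and below them for 22 of the 23 that fell. Over all genes these shares were 6.56% and 3.98%. The count depended on which library was left out of the fit: between 36 (without EV replicate 2) and 445 (without EM replicate 1) genes passed, with 93, 68 and 64 without EM replicates 2, 3 and 4, and 41, 127 and 93 without EV replicates 1, 3 and 4. All 218 kept their sign in each of those 8 fits, and 32 of them (30 higher, 2 lower) passed in every one. With library totals in place of composition factors the median of all genes moved to -0.11, 127 genes passed, and 59.1% of them were higher, against 89.4% with those factors.

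**Figure D1:**
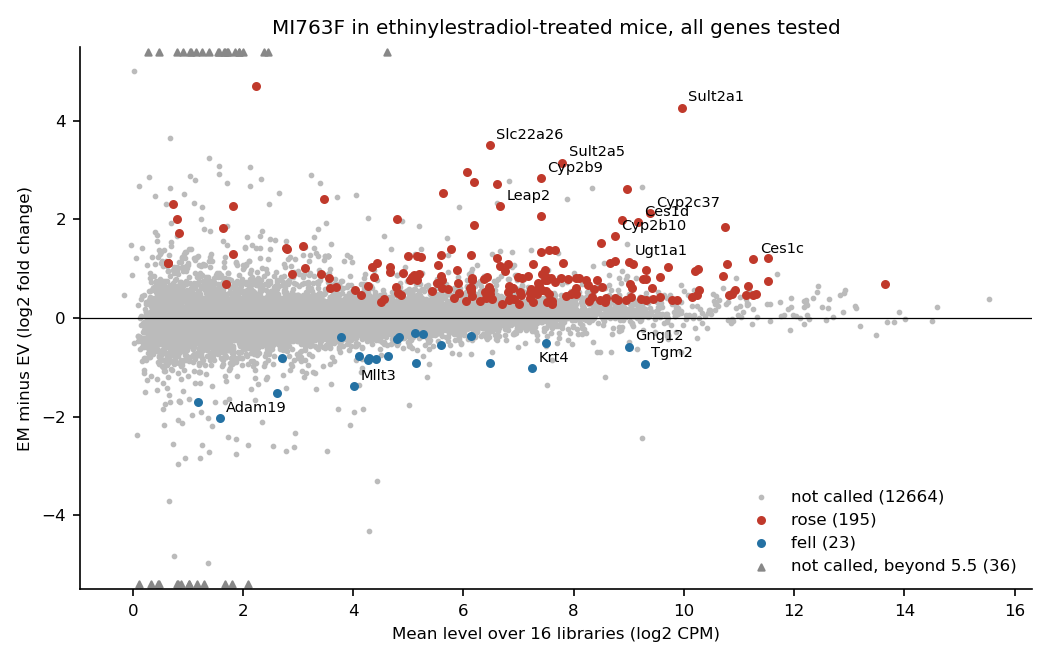
Each point is a gene, with its mean level over 16 libraries (log2 CPM) on the x axis and the EM minus EV log2 fold change on the y axis; red and blue mark the 195 genes that rose and the 23 that fell, and 36 genes beyond 5.5, none of them called, are triangles at the edge. The rises reach higher than the falls and include abundant genes such as Ces1c, Sult2a1 and Cyp2c37.

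The Sult2a genes, grouped as a family after their values were seen, stood among the largest rises. Of 8 members tested, 6 passed, all 8 had EM libraries above EV libraries (as did 6.56% of all genes), and their median log2 fold change was 2.69. Sult2a1 (ENSMUSG00000078798), with the largest log2 fold change of the 8 members, had 89.8, 523, 559 and 445 CPM in EM livers, against 25.8, 12, 21.4 and 24.5 CPM in EV livers. The ranges were far apart although EM replicate 1 lay well below the other EM libraries (log2 fold change 4.27 ± 0.45 (SE), adjusted p = 0.000314). Without EM replicate 1 its log2 fold change was 4.60 ± 0.23. In mice without EE it averaged 1996 ± 273 CPM in CM livers and 1554 ± 179.6 CPM in CV livers.

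Sult2a5 (ENSMUSG00000078799), whose window holds the exact inverted repeat, had 42.6, 74.6, 101 and 70.9 CPM in EM livers, against 7.75, 7.25, 9.12 and 8.35 CPM in EV livers. Every EM library was above every EV library, and the EV libraries were tightly grouped (log2 fold change 3.15 ± 0.21 (SE), adjusted p = 2.91e-06). It averaged 439 ± 63.3 CPM in CM livers and 367 ± 42.2 CPM in CV livers. Sult2a6 had 19.5, 31.4, 36.1 and 41.4 CPM in EM livers, against 5.43, 3.84, 4.89 and 4.73 CPM in EV livers (2.76 ± 0.23, adjusted p = 3.64e-05). The 4 EM libraries again lay above all EV libraries, with EM replicate 1 lowest.

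Sult2a2 had 132, 286, 306 and 272 CPM in EM livers, against 47, 26, 42.5 and 47.6 CPM in EV livers (2.61 ± 0.24, adjusted p = 6.79e-05). Sult2a4 had 11.2, 28.6, 28.1 and 30.9 CPM in EM livers, against 4.78, 2.38, 4.71 and 5.04 CPM in EV livers (2.55 ± 0.29, adjusted p = 0.000401). Sult2a3 had 8.33, 61.8, 62 and 40.2 CPM in EM livers, against 4.96, 5.69, 4.53 and 6.93 CPM in EV livers (2.96 ± 0.61, adjusted p = 0.0306). In these 3 genes EM replicate 1 was the lowest EM library, and in Sult2a3 it was close to the EV range. Sult2a1, Sult2a2, Sult2a4, Sult2a5 and Sult2a6 passed in all 8 fits with 1 library left out. Sult2a3 passed in only 1 of those 8 fits, that without EM replicate 1 (adjusted p up to 0.133). Sult2a3 lost the call in the fit of the 8 EE libraries alone (adjusted p = 0.0567). Sult2a7, named after its values were seen, had 9.66 to 19.4 CPM in EM livers and 1.9 to 3.57 CPM in EV livers, with no overlap, and did not pass (adjusted p = 0.343). Sult2a8, named likewise, had 11.5 to 20.2 CPM in EM livers and 4.18 to 6.4 CPM in EV livers (adjusted p = 0.209). The pseudogene Sult2a-ps1, with 1.18, 1.83, 4.26 and 3.17 CPM in EM livers, against 0, 0, 0.423 and 0 CPM in EV livers, passed as well (adjusted p = 0.0115). It was at 0 in 3 of the 4 EV libraries, so no fold change is given. Sult2a-ps1 lost the call without EV replicate 1 or EV replicate 2 (adjusted p up to 0.0594).
The members are close copies: the share of 31-base words of a transcript found in another member was 74.5% for Sult2a2, 53.8% for Sult2a1, 51.1% for Sult2a5, 45.8% for Sult2a4, 27.4% for Sult2a3 and 13.9% for Sult2a6. The division of reads among them is therefore uncertain.

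**Figure D2:**
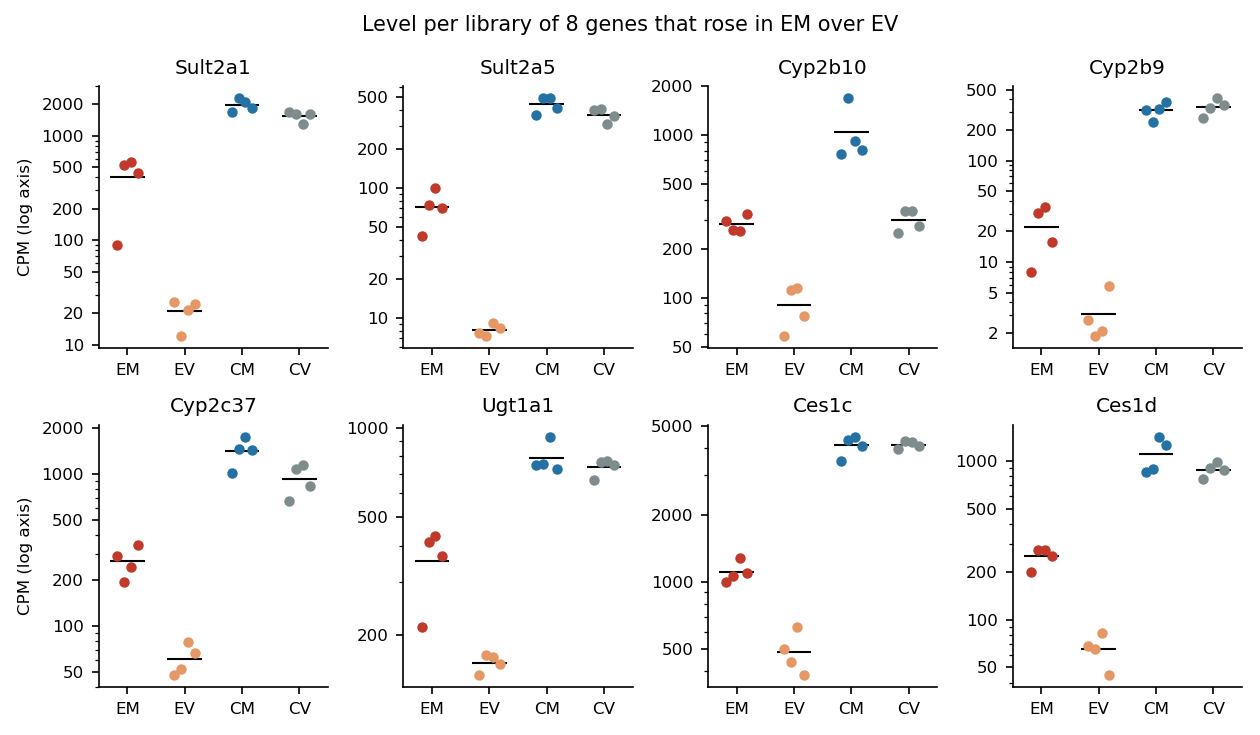
Level of 8 genes that rose in EM over EV (CPM, log axis) in each library, 4 per group, with horizontal bars at the group means; groups from left to right are EM, EV, CM and CV. In every panel the 4 EM libraries lie above the 4 EV libraries. EM replicate 1 (the leftmost EM point) is the lowest of its group in all panels except Cyp2b10 and Cyp2c37.

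Cytochrome P450 genes known to respond to CAR or PXR rose in 7 of 21 measured members, none fell, and the median of the list was 0.80. Cyp2b10 (ENSMUSG00000030483), the marker of CAR activity, had 294, 260, 256 and 324 CPM in EM livers, against 57.6, 112, 114 and 77 CPM in EV livers. The groups did not overlap, and EM replicate 1 was among the higher EM libraries here (log2 fold change 1.66 ± 0.26 (SE), adjusted p = 0.00549). Cyp2b10 was also higher with the ligand in mice without EE, where it averaged 1046 ± 435 CPM in CM livers and 300.5 ± 45.6 CPM in CV livers, a log2 fold change of 1.8 ± 0.26 (adjusted p = 0.00953). That call was lost without CV replicate 1 (adjusted p = 0.0667), and the fold change was 1.47 without CM replicate 2, its highest library.

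Cyp2b9 and Cyp2b13, steroid hydroxylases that are higher in female mouse liver, were low in EE livers. Cyp2b9 had 8.06, 30.5, 34.8 and 15.7 CPM in EM livers, against 2.69, 1.85, 2.11 and 5.78 CPM in EV livers (log2 fold change 2.84 ± 0.44 (SE), adjusted p = 0.00671). Cyp2b13 had 3.15, 8.84, 8.53 and 4.08 CPM in EM livers, against 0.603, 0.632, 1.03 and 1.52 CPM in EV livers (2.71 ± 0.60, adjusted p = 0.0391). All EM libraries were above all EV libraries in both genes, but both stayed far under the mice without EE, where Cyp2b9 averaged 313 ± 56.9 CPM in CM livers and 339 ± 63.5 CPM in CV livers.

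The Cyp2c family, whose products oxidise arachidonic acid among other substrates, was grouped after its values were seen. Of its 14 members tested, 3 rose. Cyp2c37 (ENSMUSG00000042248) had 288, 194, 244 and 342 CPM in EM livers, against 47.5, 52.2, 79 and 66.6 CPM in EV livers (log2 fold change 2.12 ± 0.23 (SE), adjusted p = 0.000314). Cyp2c50 had 320.3, 118, 203 and 249 CPM in EM livers, against 49.2, 55.6, 73.1 and 45.4 CPM in EV livers (2.00 ± 0.27, adjusted p = 0.00235). Cyp2c54 had 61.8, 18.1, 33.8 and 52.2 CPM in EM livers, against 5.61, 9.04, 15.4 and 9.46 CPM in EV livers (2.08 ± 0.46, adjusted p = 0.0404). For Cyp2c50 and Cyp2c54 EM replicate 1 was the highest EM library, and EM replicate 2 the lowest, unlike the Sult2a genes. These 3 genes share 47.4%, 47.3% and 42.3% of their 31-base words with other members, so reads may be divided among them. Cyp2c29, named after its values were seen, had 4003, 3987, 5274 and 5977 CPM in EM livers, against 3047, 2816, 3204 and 3202 CPM in EV livers. Its ranges did not overlap either, but it did not pass (0.65 ± 0.20, adjusted p = 0.127).

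Among CYP3A genes, the human identifier ENSG00000160868 had 1319, 2002, 2173 and 2106 CPM in EM livers, against 550, 549.9, 753 and 261 CPM in EV livers. The EM libraries were all above the EV libraries, with EM replicate 1 lowest (log2 fold change 1.85 ± 0.36 (SE), adjusted p = 0.0207). Cyp3a16 had 2.88, 4.21, 4.71 and 5.64 CPM in EM livers, against 1.07, 0.778, 1.27 and 0.473 CPM in EV livers (2.28 ± 0.39, adjusted p = 0.00876). The pseudogene Cyp3a63-ps had 56.8, 83.7, 94.2 and 95.2 CPM in EM livers, against 22.6, 23.4, 30.9 and 12.2 CPM in EV livers (1.89 ± 0.33, adjusted p = 0.01). In both, as in ENSG00000160868, EM replicate 1 was the lowest EM library and EV replicate 4 the lowest EV library. Whether reads of the human gene were counted to these mouse entries was not tested, so they may not be separate rises. Cyp3a11, Cyp3a25 and Cyp3a41a of the P450 list were not among the genes tested. Cyp3a13 had 81.2, 104, 80.2 and 82.6 CPM in EM livers, against 42.5, 53.1, 55.6 and 52.8 CPM in EV livers and missed the threshold (0.77 ± 0.19, adjusted p = 0.0616). Cyp2b10, Cyp2b9, Cyp2c37 and Cyp2c50 passed in all 8 fits with 1 library left out. Cyp2b13 passed in only 1 of those 8 fits, that without EM replicate 1 (adjusted p up to 0.148). Cyp2c54 passed in only 2 of those 8 fits, those without EM replicate 2 or EV replicate 3 (adjusted p up to 0.149). Cyp3a16 lost the call without EV replicate 2 (adjusted p up to 0.0522). Cyp3a63-ps lost the call without EV replicate 1 or EV replicate 2 (adjusted p up to 0.055). ENSG00000160868 passed in only 3 of those 8 fits, those without EM replicate 1, EV replicate 3 or EV replicate 4 (adjusted p up to 0.0807). Cyp2b13 and Cyp2c54 lost the call with library totals in place of composition factors (adjusted p from 0.0577 to 0.0585). Cyp2b9 and Cyp2c54 lost the call in the fit of the 8 EE libraries alone (adjusted p from 0.0502 to 0.0565). Over the same 8 fits the P450 list had 4 to 8 called members, the fewest without EV replicate 2.

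Conjugation genes rose in 8 of 30 measured members with none falling (median 0.55). The 6 Sult2a genes above were joined by Ugt1a1 and Sult1a1. Ugt1a1 (ENSMUSG00000089960), which glucuronidates bilirubin, had 213, 412, 430.4 and 368 CPM in EM livers, against 145, 171, 168 and 158 CPM in EV livers. Every EM library exceeded the EV libraries, EM replicate 1 by the least (log2 fold change 1.15 ± 0.17 (SE), adjusted p = 0.00417, and 1.33 ± 0.10 without EM replicate 1). Ugt1a1 averaged 791 ± 94.3 CPM in CM livers and 738 ± 50.6 CPM in CV livers. Sult1a1, a phenol sulfotransferase named after its values were seen, had 105, 170, 148 and 149 CPM in EM livers, against 59.2, 45.4, 94.6 and 65.4 CPM in EV livers (1.11 ± 0.20, adjusted p = 0.01). Ugt1a9, Ugt2b1 and Ugt3a2 had log2 fold changes of 1.35 ± 0.36, 0.60 ± 0.16 and 0.49 ± 0.13 and did not pass (adjusted p = 0.0818, 0.079 and 0.0813). The Ugt1a genes share their last exons, so reads can be counted to more than 1 of them. Ugt1a1 passed in all 8 fits with 1 library left out. Sult1a1 lost the call without EV replicate 1 or EV replicate 2 (adjusted p up to 0.0582). The list had 6 to 10 called members in those 8 fits, the fewest without EV replicate 1 or EV replicate 2.

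Carboxylesterases of the Ces1 group, which split ester drugs and lipid esters, rose in 6 of 6 members tested, against 1.51% of all genes. They were grouped as a family after their values were seen, and Ces1a and Ces1h were not tested. Ces1d (ENSMUSG00000056973), a hydrolase of stored triglyceride, had 199, 276, 274 and 252 CPM in EM livers, against 68.6, 65.2, 82.8 and 44.5 CPM in EV livers. The gap between the groups was wider than the spread within either (log2 fold change 1.94 ± 0.20 (SE), adjusted p = 0.000196). Ces1c, an abundant esterase secreted into mouse plasma, had 997, 1061, 1280 and 1100 CPM in EM livers, against 499, 438, 629.5 and 382 CPM in EV livers (1.19 ± 0.13, adjusted p = 0.000401). It averaged 4088 ± 427 CPM in CM livers and 4126 ± 146 CPM in CV livers, so the EM level stayed well below that of mice without EE. Ces1e, Ces1f, Ces1g and Ces1b rose by 1.27, 1.38, 1.34 and 1.26 (adjusted p = 0.000731, 0.00549, 0.0163 and 0.0418).

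In the wider list of glutathione transferases, esterases, flavin monooxygenases and aldehyde enzymes, 10 of 43 measured members rose and none fell (median 0.61). Beside the Ces1 genes they were Gsta3 and Gstt1, which conjugate glutathione, the esterase Ces2a, and the steroid dehydrogenase Akr1c6. Of these, Gsta3, Ces2a, Akr1c6 and Ces1b were named after their values were seen. Gsta3 had 448, 555, 709.6 and 687 CPM in EM livers, against 331, 262, 359 and 252 CPM in EV livers (0.99 ± 0.23, adjusted p = 0.0433). Gstt1 had 132, 156, 165 and 183 CPM in EM livers, against 92, 85, 87 and 97.3 CPM in EV livers (0.82 ± 0.16, adjusted p = 0.0242). The EM libraries were above the EV libraries in both genes. Fmo1, Gstm7 and Gstm6, with log2 fold changes of 0.43, 0.58 and 0.68, did not pass (adjusted p = 0.077, 0.111 and 0.12). Ces1c, Ces1d, Ces1e and Ces1f passed in all 8 fits with 1 library left out. Ces1g and Akr1c6 passed in only 3 of those 8 fits, those without EM replicate 1, EM replicate 2 or EV replicate 3 (highest adjusted p from 0.0728 to 0.131). Gstt1 and Gsta3 passed in only 1 of those 8 fits, that without EM replicate 1 (highest adjusted p from 0.11 to 0.163). Ces1b passed in only 2 of those 8 fits, those without EM replicate 1 or EV replicate 3 (adjusted p up to 0.154). Ces2a passed in only 2 of those 8 fits, those without EM replicate 1 or EM replicate 2 (adjusted p up to 0.12). Ces1b, Gstt1, Gsta3, Ces2a and Akr1c6 lost the call with library totals in place of composition factors (adjusted p from 0.0512 to 0.0931). Ces1b lost the call in the fit of the 8 EE libraries alone (adjusted p = 0.0771). The list had 4 to 12 called members in those fits.

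**Figure D3:**
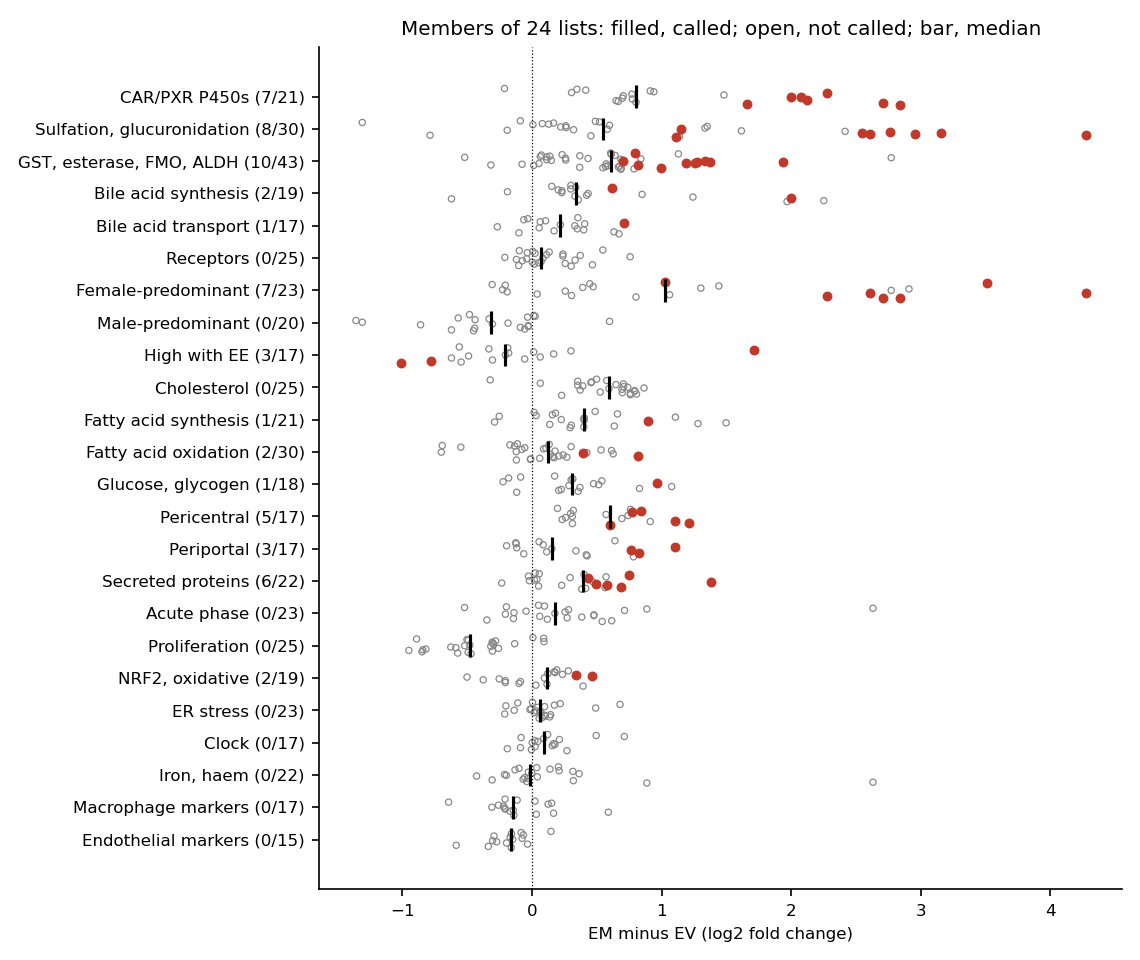
EM minus EV log2 fold change of the measured members of 24 gene lists, 1 row per list, with called over measured members in brackets; filled points passed the test, open points did not, and bars mark the medians. The called points lie to the right of 0 except for 2 genes of the list high with EE, and those of the conjugation and female-predominant lists reach furthest.

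Carriers of organic ions rose in part. Slc22a26, an organic anion carrier that is higher in female liver, had 3.84, 10.5, 8.97 and 4.08 CPM in EM livers, against 0.696, 0.34, 0.845 and 0.525 CPM in EV livers. Its groups did not overlap (log2 fold change 3.51 ± 0.40 (SE), adjusted p = 0.000401), yet the EM level was a small share of that without EE, where it averaged 184 ± 45.4 CPM in CM livers and 164 ± 24.4 CPM in CV livers. Slc22a27 had 9.98, 19.7, 17 and 12.1 CPM in EM livers, against 8.77, 5.88, 7.43 and 6.72 CPM in EV livers (1.03 ± 0.20, adjusted p = 0.0208). Slc47a1, the cation efflux carrier MATE1, was named after its values were seen and had 29.2, 42.2, 44.3 and 44.3 CPM in EM livers, against 17.1, 21.7, 23.2 and 19.9 CPM in EV livers (0.97 ± 0.14, adjusted p = 0.00452). All 4 EM libraries were above the EV libraries in each of these carriers. Slc22a26 and Slc47a1 passed in all 8 fits with 1 library left out. Slc22a27 lost the call without EM replicate 2, EM replicate 3, EV replicate 2 or EV replicate 4 (adjusted p up to 0.103). Slc22a27 lost the call with library totals in place of composition factors (adjusted p = 0.0549). Slc22a27 lost the call in the fit of the 8 EE libraries alone (adjusted p = 0.0567).

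Among bile acid synthesis genes 2 of 19 measured members rose, none fell, and the list's median was 0.34. Cyp39a1, which hydroxylates 24-hydroxycholesterol on the way to bile acids, had 6.35, 16, 19.1 and 15.1 CPM in EM livers, against 3.81, 2.43, 3.38 and 4.52 CPM in EV livers. EM replicate 1 was closest to the EV range (log2 fold change 2.00 ± 0.35 (SE), adjusted p = 0.00943). Slc27a5, which activates bile acids for conjugation with taurine or glycine, had 137, 162, 195 and 213 CPM in EM livers, against 106, 121, 121 and 111 CPM in EV livers (0.62 ± 0.14, adjusted p = 0.0402). The groups were separate in both genes.

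Cyp7a1, the rate-limiting enzyme of the classical pathway, had 13, 12.7, 36 and 26.2 CPM in EM livers, against 1.62, 5.98, 14.1 and 1.16 CPM in EV livers. The groups overlapped through EV replicate 3, and the spread within EV was wide (log2 fold change 1.97 ± 0.75 (SE), adjusted p = 0.263). Cyp8b1, the sterol 12α-hydroxylase that sets the share of cholic acid, had 5.93, 2.13, 8.93 and 8.7 CPM in EM livers, against 0.696, 1.85, 2.11 and 0.841 CPM in EV livers. Its lowest EM library, replicate 2, was just above the highest EV library, and it did not pass (2.25 ± 0.65, adjusted p = 0.111). Cyp7b1, the oxysterol 7α-hydroxylase of the alternative pathway, had 966, 839.6, 775 and 917 CPM in EM livers, against 1338, 1308, 1247 and 1487 CPM in EV livers. All EM libraries were below all EV libraries, and the test missed the threshold narrowly (-0.62 ± 0.15, adjusted p = 0.0511). It averaged 23.1 ± 3.94 CPM in CM livers and 18.7 ± 4.3 CPM in CV livers. Cyp27a1 had 409 to 526 CPM in EM livers and 363 to 396 CPM in EV livers (0.36 ± 0.15, adjusted p = 0.295), and Akr1d1, the bile acid 5β-reductase, 61.2 to 93.3 CPM in EM livers and 36.8 to 53.2 CPM in EV livers (0.85 ± 0.22, adjusted p = 0.0671). Cyp39a1 lost the call without EV replicate 1 or EV replicate 2 (adjusted p up to 0.0553). Slc27a5 passed in only 1 of those 8 fits, that without EM replicate 1 (adjusted p up to 0.165). Slc27a5 lost the call with library totals in place of composition factors (adjusted p = 0.0999). Slc27a5 lost the call in the fit of the 8 EE libraries alone (adjusted p = 0.0567). The list had 0 to 4 called members in those 8 fits, none without EV replicate 1 or EV replicate 2 and the most without EM replicate 1.

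In the list drawn up for bile acid transport 1 of 17 measured members rose, and their median was 0.22. The called gene was Abcc6, a hepatocyte efflux pump for which no part in bile acid transport is claimed here. It had 22.3, 30.9, 37.7 and 42.6 CPM in EM livers, against 19.6, 18.8, 23.1 and 20.2 CPM in EV livers. EM replicate 1 lay inside the EV range (log2 fold change 0.71 ± 0.15 (SE), adjusted p = 0.0304). Slc10a1, the sodium-dependent bile acid uptake carrier, had 141, 204, 239 and 204 CPM in EM livers, against 113, 114, 133 and 134 CPM in EV livers. Its ranges did not overlap, but it did not pass (0.67 ± 0.17, adjusted p = 0.0647). Abcb11, the canalicular bile salt export pump, had 145, 151, 176 and 182 CPM in EM livers, against 128, 132, 148 and 105 CPM in EV livers. The ranges overlapped (0.35 ± 0.17, adjusted p = 0.43). The efflux pumps Abcc2, Abcc3 and Abcc4 had log2 fold changes of 0.33 ± 0.13, 0.22 ± 0.12 and 0.41 ± 0.30 (adjusted p = 0.282, 0.463 and 0.647). Abcc6 passed in only 2 of those 8 fits, those without EM replicate 1 or EV replicate 3 (adjusted p up to 0.133). Abcc6 lost the call with library totals in place of composition factors (adjusted p = 0.0713). Abcc6 lost the call in the fit of the 8 EE libraries alone (adjusted p = 0.0936).

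No receptor or bile acid sensor passed among 25 measured (median 0.071). The bile acid receptor Nr1h4 had 81.1, 89.8, 108 and 89.8 CPM in EM livers, against 61.3, 67.2, 76.6 and 61.9 CPM in EV livers. Its EM libraries were all higher than its EV libraries, and it did not pass (0.47 ± 0.13, adjusted p = 0.0947). Its target Nr0b2, the repressor of Cyp7a1, had 42.6, 68.8, 41.7 and 52.7 CPM in EM livers, against 54.2, 37.8, 32.7 and 78.6 CPM in EV livers. The ranges overlapped fully, and the fold change of 0.016 ± 0.37 was within the spread. The estrogen receptor Esr1 had 5.69 to 8.9 CPM in EM livers and 5.8 to 7.31 CPM in EV livers (adjusted p = 0.571).

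**Figure D4:**
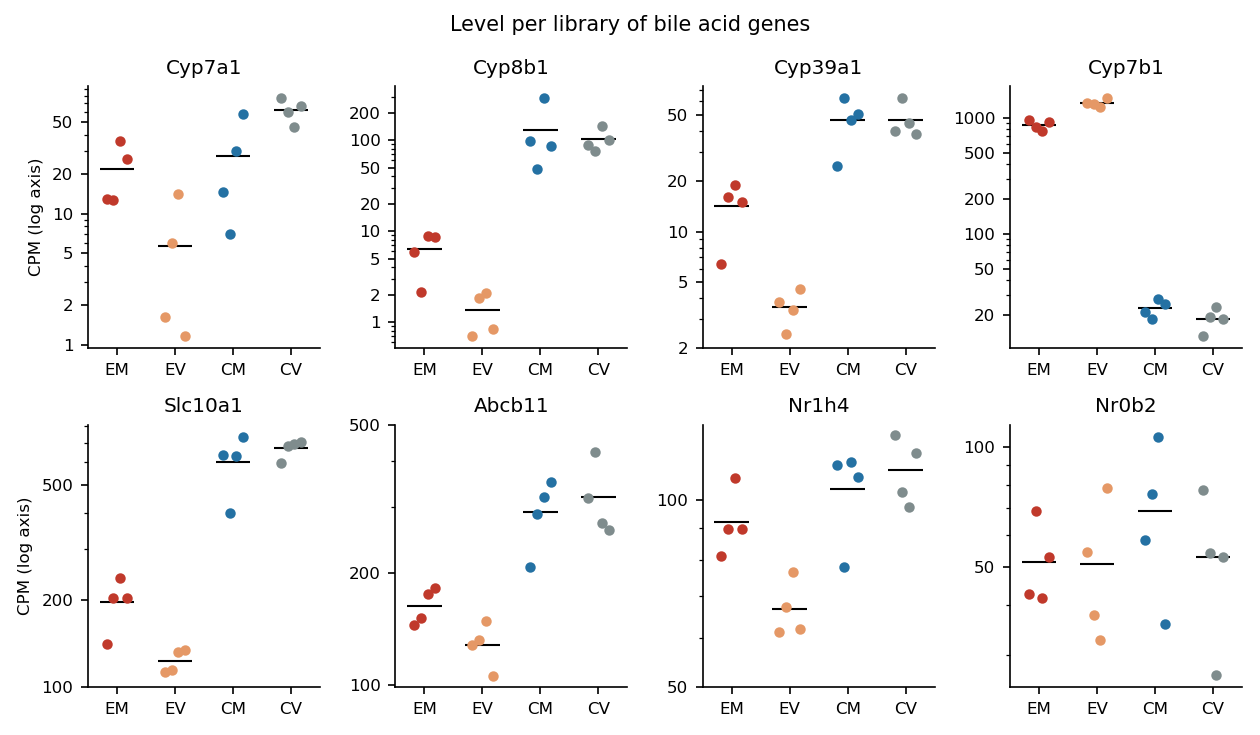
Level of 8 bile acid genes (CPM, log axis) in each library, 4 per group, with bars at the group means; groups from left to right are EM, EV, CM and CV. Of the 8, only Cyp39a1 passed the test in EM against EV; Cyp7b1 is lower in all EM than in all EV libraries, and Cyp7a1 and Nr0b2 overlap.

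Sex-predominant genes moved unevenly. Of 23 measured genes known to be higher in female mouse liver, 7 rose and none fell, with a median of 1.03. The 7 were Sult2a1, Sult2a2, Cyp2b9, Cyp2b13, Cyp3a16, Slc22a26 and Slc22a27, most of which also stand in the CAR and PXR lists, so the count is not separate from those above. Cyp2c69 had 167, 326, 274 and 183 CPM in EM livers, against 158, 56.6, 155 and 86.3 CPM in EV livers and did not pass (1.06 ± 0.30, adjusted p = 0.0943). Of 20 measured male-predominant genes none passed, and the median was -0.32. With 1 library left out, the female-predominant list had 4 to 7 called members and the male-predominant list 0 to 2. The list's summed level was 1613 to 2982 CPM in EM and 1195 to 1565 CPM in EV livers for female-predominant genes, against 5105 to 6191 CPM in CM and 5071 to 5653 CPM in CV livers.

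Genes of the pericentral zone of the lobule, the zone where drug oxidation is concentrated, rose in 5 of 17 measured members, and all 17 had positive values (median 0.60). Cyp2e1, the ethanol-oxidising P450, had 606, 751, 1234 and 1305 CPM in EM livers, against 386, 341, 459.6 and 499.9 CPM in EV livers (log2 fold change 1.21 ± 0.27 (SE), adjusted p = 0.0362). Glul, glutamine synthetase and a classical pericentral marker, had 338, 425, 525 and 516 CPM in EM livers, against 312, 254, 291 and 330.3 CPM in EV livers (0.60 ± 0.14, adjusted p = 0.0433). The EM libraries exceeded the EV libraries in both genes, with EM replicate 1 close to EV replicate 4 for Glul. Rgn and Gulo, both of the ascorbate pathway in mice, rose by 1.1 ± 0.23 and 0.84 ± 0.14. The periportal list had 3 of 17 called members and a median of 0.15. Otc, of the urea cycle, had 82.4, 86.8, 112 and 117 CPM in EM livers, against 53.4, 51.9, 65.2 and 54.5 CPM in EV livers (0.83 ± 0.14, adjusted p = 0.00954), and the groups did not overlap. Gls2 and Hsd17b13 rose by 0.76 ± 0.18 and 1.11 ± 0.24. Cyp2e1, Glul and Hsd17b13 passed in only 1 of those 8 fits, that without EM replicate 1 (highest adjusted p from 0.133 to 0.183). Gulo lost the call without EV replicate 2 (adjusted p up to 0.051). Otc lost the call without EV replicate 1 or EV replicate 2 (adjusted p up to 0.0564). Rgn passed in only 3 of those 8 fits, those without EM replicate 1, EM replicate 2 or EV replicate 3 (adjusted p up to 0.133). Gls2 passed in only 2 of those 8 fits, those without EM replicate 1 or EV replicate 4 (adjusted p up to 0.159). Cyp2e1, Glul, Rgn, Gls2 and Hsd17b13 lost the call with library totals in place of composition factors (adjusted p from 0.0512 to 0.105). Cyp2e1 and Glul lost the call in the fit of the 8 EE libraries alone (adjusted p from 0.055 to 0.0836). No member of the pericentral list passed without EV replicate 2, and none of the periportal list without EV replicate 1 or EV replicate 2.

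Secreted plasma proteins rose in 6 of 22 measured members, and none fell (median 0.39). Serpina6, corticosteroid-binding globulin, had 44.8, 36.4, 68.1 and 37.3 CPM in EM livers, against 17.6, 14, 23.2 and 17.1 CPM in EV livers. The groups were apart (log2 fold change 1.38 ± 0.22 (SE), adjusted p = 0.00718). Apoa2, an apolipoprotein of HDL, had 5872, 5886, 7780 and 7588 CPM in EM livers, against 3593, 4393, 4314 and 4526 CPM in EV livers (0.69 ± 0.13, adjusted p = 0.0181). Serpinc1, antithrombin, had 1179, 1502, 1665 and 1717 CPM in EM livers, against 1084, 1037, 1119 and 1061 CPM in EV livers (0.50 ± 0.097, adjusted p = 0.0208). Rbp4, Apoh and F2 rose by 0.75, 0.58 and 0.43, and Plg missed the threshold at 0.57 (adjusted p = 0.0501). Serpina6 passed in all 8 fits with 1 library left out. Serpinc1 and Rbp4 passed in only 2 of those 8 fits, those without EM replicate 1 or EV replicate 3 (highest adjusted p from 0.11 to 0.135). Apoa2 lost the call without EM replicate 3, EM replicate 4, EV replicate 1 or EV replicate 2 (adjusted p up to 0.0936). Apoh passed in only 2 of those 8 fits, those without EM replicate 1 or EV replicate 4 (adjusted p up to 0.148). F2 passed in only 1 of those 8 fits, that without EM replicate 1 (adjusted p up to 0.154). Serpinc1, Apoh, Rbp4 and F2 lost the call with library totals in place of composition factors (adjusted p from 0.0648 to 0.108). Serpinc1, Apoh, Rbp4 and F2 lost the call in the fit of the 8 EE libraries alone (adjusted p from 0.0555 to 0.0863). The list had 1 to 9 called members in those fits.

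Lipid and glucose genes gave few calls. No cholesterol synthesis gene passed of 25 measured. Positive values stood in 24 of them (median 0.59, against -0.0024 for all genes). EM libraries lay above EV libraries in 15, against 6.56% of all genes. Tm7sf2, a sterol reductase, had 34.9, 37.2, 57.9 and 55.5 CPM in EM livers, against 29.4, 23.3, 22.2 and 27.1 CPM in EV livers (0.86 ± 0.27, adjusted p = 0.146), with no overlap. Fads1, a fatty acid desaturase, was the 1 gene of 21 that rose among fatty acid synthesis genes (median 0.40), with 79.6, 86.8, 113 and 92.3 CPM in EM livers, against 58, 43.6, 45.1 and 52.8 CPM in EV livers (0.90 ± 0.21, adjusted p = 0.0455). Scd1 was high in EM replicates 3 and 4 only, with 28.7, 19.5, 104 and 105 CPM in EM livers, against 30.5, 21.1, 22.4 and 17.3 CPM in EV livers (1.5 ± 0.52, adjusted p = 0.209). Of 30 fatty acid oxidation genes 2 rose (median 0.12). Hadh, a dehydrogenase of β-oxidation, had 132, 174, 164 and 154 CPM in EM livers, against 72.3, 88.2, 103 and 90.6 CPM in EV livers (0.82 ± 0.12, adjusted p = 0.00452). Acaa2 rose by 0.39 ± 0.078. Ppp1r3b, which directs a phosphatase to glycogen, was the 1 gene of 18 that rose among glucose genes (median 0.31), with 57.8, 73.5, 82 and 90.1 CPM in EM livers, against 38.7, 40.6, 35.7 and 40.5 CPM in EV livers (0.96 ± 0.17, adjusted p = 0.0094). In Fads1, Hadh, Acaa2 and Ppp1r3b all EM libraries lay above the EV libraries. Hadh passed in all 8 fits with 1 library left out. Ppp1r3b lost the call without EM replicate 4, EV replicate 1 or EV replicate 2 (adjusted p up to 0.0564). Acaa2 passed in only 2 of those 8 fits, those without EM replicate 1 or EV replicate 3 (adjusted p up to 0.11). Fads1 passed in only 1 of those 8 fits, that without EM replicate 1 (adjusted p up to 0.176). Acaa2 and Fads1 lost the call with library totals in place of composition factors (adjusted p from 0.0982 to 0.105). Acaa2 lost the call in the fit of the 8 EE libraries alone (adjusted p = 0.0599).

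Sod1 and Sod2, the superoxide dismutases, rose by 0.46 ± 0.093 and 0.34 ± 0.08 among 19 oxidative stress genes (median 0.12). Sod1 and Sod2 passed in only 1 of those 8 fits, that without EM replicate 1 (highest adjusted p from 0.133 to 0.159). Sod1 and Sod2 lost the call with library totals in place of composition factors (adjusted p from 0.0788 to 0.21). Sod2 lost the call in the fit of the 8 EE libraries alone (adjusted p = 0.0627). No gene passed among 23 acute phase, 23 endoplasmic reticulum stress, 17 clock, 15 immediate early and 22 iron and haem genes, whose medians were 0.18, 0.061, 0.091, 0.15 and -0.015. Hamp2, a hepcidin gene, had 12, 22.1, 34.4 and 16.2 CPM in EM livers, against 2.65, 1.9, 8.57 and 0.841 CPM in EV livers. The EM libraries were above the EV libraries with wide spread (2.63 ± 0.91, adjusted p = 0.207).

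The remaining genes with the largest rises belong to no list. Leap2, a liver peptide that blocks the ghrelin receptor, had 24.1, 28.4, 64.3 and 18.7 CPM in EM livers, against 5.34, 5.64, 8.33 and 8.82 CPM in EV livers. The groups were apart, with EM replicate 3 highest (log2 fold change 2.28 ± 0.34 (SE), adjusted p = 0.00546). Inmt, which methylates indole amines, had 85.9, 154, 217 and 201 CPM in EM livers, against 59, 53, 59.5 and 58.6 CPM in EV livers (1.51 ± 0.36, adjusted p = 0.0479). Car5a, the mitochondrial carbonic anhydrase, had 12.7, 13.5, 22.8 and 20.2 CPM in EM livers, against 5.52, 4.81, 8.57 and 7.35 CPM in EV livers (1.41 ± 0.26, adjusted p = 0.0172). In these genes all EM libraries lay above the EV libraries. Hsd3b2, Gas1 and Acss3 rose by 1.83 ± 0.38, 1.4 ± 0.29 and 1.45 ± 0.30, with 1.39 to 2.42 CPM in EM livers and 0.325 to 0.785 CPM in EV livers for Hsd3b2, 2.07 to 3.51 CPM in EM livers and 0.65 to 1.51 CPM in EV livers for Gas1 and 2.19 to 5.25 CPM in EM livers and 1.37 to 2.04 CPM in EV livers for Acss3. Leap2 passed in all 8 fits with 1 library left out. Inmt and Acss3 passed in only 1 of those 8 fits, that without EM replicate 1 (highest adjusted p from 0.113 to 0.164). Car5a lost the call without EM replicate 3, EM replicate 4, EV replicate 1 or EV replicate 2 (adjusted p up to 0.0849). Hsd3b2 passed in only 2 of those 8 fits, those without EM replicate 1 or EV replicate 3 (adjusted p up to 0.131). Gas1 passed in only 3 of those 8 fits, those without EM replicate 1, EM replicate 2 or EV replicate 3 (adjusted p up to 0.118). Inmt and Acss3 lost the call with library totals in place of composition factors (adjusted p from 0.0544 to 0.0839). Inmt lost the call with no filter on low counts (adjusted p = 0.0501). Inmt lost the call with limma (adjusted p = 0.0562).

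Of the 23 genes that fell, 15 had levels and separate groups that met the rule for naming, and Adam19 and Mllt3 passed in all 8 fits with 1 library left out. Adam19, a membrane metalloprotease, had 2.51, 1.65, 1.95 and 2.04 CPM in EM livers, against 7.14, 12.2, 7.31 and 6.67 CPM in EV livers. The EM libraries were tightly grouped under the EV libraries, of which replicate 2 was highest (log2 fold change -2.02 ± 0.29 (SE), adjusted p = 0.00339). Mllt3, a chromatin reader, had 22.9, 11.7, 13.4 and 17 CPM in EM livers, against 43.7, 47.6, 34.2 and 43.2 CPM in EV livers (-1.38 ± 0.21, adjusted p = 0.00546). The groups did not overlap in either gene. Without EE Adam19 averaged 0.417 ± 0.0882 CPM in CM livers and 0.425 ± 0.24 CPM in CV livers, and Mllt3 averaged 3.13 ± 0.624 CPM in CM livers and 2.66 ± 0.783 CPM in CV livers. Krt4, an epithelial keratin, had 281, 197, 141 and 188 CPM in EM livers, against 565, 380.4, 317 and 363 CPM in EV livers (-1.01 ± 0.23, adjusted p = 0.0416). The EM libraries were all lower, and EM replicate 1 was the highest of them. Without EM replicate 1 the log2 fold change of Krt4 was -1.21 ± 0.23. Trex2, a DNA exonuclease, had 42.1, 33.2, 32.6 and 36.8 CPM in EM livers, against 68.3, 59, 52.6 and 67.8 CPM in EV livers (-0.78 ± 0.12, adjusted p = 0.0208), and was listed at 0 in all CM and CV libraries.

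Tgm2, a transglutaminase that crosslinks proteins, had 1134, 978, 599 and 590 CPM in EM livers, against 1786, 1796, 1332 and 1348 CPM in EV livers (-0.92 ± 0.21, adjusted p = 0.0432). Gng12, a G protein γ subunit, had 826, 787, 736 and 831 CPM in EM livers, against 1242, 1194, 1050 and 1261 CPM in EV livers (-0.58 ± 0.10, adjusted p = 0.0115). Prelp, a matrix proteoglycan, had 126, 99.3, 97.5 and 93.2 CPM in EM livers, against 180.2, 199.7, 175 and 228 CPM in EV livers (-0.91 ± 0.18, adjusted p = 0.0247). The EM libraries lay below the EV libraries in all 3 genes, and for Tgm2 EM replicates 1 and 2 were well above replicates 3 and 4. Osbpl3, Asic2, Kcne3, Ajuba, Susd1 and Ufm1 fell by 0.83, 0.77, 1.71, 0.81, 0.81 and 0.55 on the log2 scale. The transcripts Gm12248 and 2210407C18Rik, to which no role is given here, fell by 0.85 and 1.51. Krt4, Trex2, Prelp, Gm12248 and 2210407C18Rik passed in only 2 of those 8 fits, those without EM replicate 1 or EV replicate 3 (highest adjusted p from 0.0929 to 0.151). Tgm2, Osbpl3, Asic2, Kcne3 and Ajuba passed in only 1 of those 8 fits, that without EM replicate 1 (highest adjusted p from 0.138 to 0.164). Gng12 lost the call without EM replicate 3, EV replicate 1 or EV replicate 2 (adjusted p up to 0.0613). Susd1 passed in only 2 of those 8 fits, those without EM replicate 2 or EV replicate 3 (adjusted p up to 0.181). Ufm1 passed in only 3 of those 8 fits, those without EM replicate 1, EM replicate 3 or EV replicate 3 (adjusted p up to 0.0929). Krt4, Tgm2 and Susd1 lost the call in the fit of the 8 EE libraries alone (adjusted p from 0.0505 to 0.076). Krt4, Gm12248, Osbpl3 and Susd1 lost the call with limma (adjusted p from 0.0514 to 0.168).

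Of 17 genes listed for being high in EE livers, a list drawn with earlier results of these data known, 2 fell (Krt4 and Trex2) and 1 rose (median -0.20). The gene that rose was Vldlr, a lipoprotein receptor under 1 CPM in every EE library, which went against its list's name: it averaged 0.436 ± 0.19 CPM in EM livers and 0.128 ± 0.0185 CPM in EV livers, and 3.26 ± 1.37 CPM in CM livers and 3.0 ± 0.254 CPM in CV livers. Vldlr passed in only 1 of those 8 fits, that without EM replicate 1 (adjusted p up to 0.252). Vldlr lost the call with library totals in place of composition factors (adjusted p = 0.085). Vldlr lost the call with a filter of at least 1 CPM in 8 libraries (adjusted p = 0.0586). Vldlr lost the call with DESeq2 (adjusted p = 0.0654). Vldlr lost the call with limma (adjusted p = 0.123). Krt79, another keratin of the list, had 76.7, 87.8, 85.8 and 98.7 CPM in EM livers, against 167, 115, 112 and 116 CPM in EV livers. The EM libraries were all lower, and it did not pass (-0.55 ± 0.17, adjusted p = 0.129).

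Proliferation genes did not pass in any of 25 measured members (median -0.48). Their summed level was 374, 151, 157 and 148 CPM in EM livers, against 276, 271, 287 and 214 CPM in EV livers. EM replicate 1 thus held more of these transcripts than any EV library, and the other 3 EM libraries less than all of them. With EM replicate 1 left out, 5 members passed and the median was -1.12. Plk1, a mitotic kinase, had 6.46, 1.65, 1.64 and 1.88 CPM in EM livers, against 5.75, 5.83, 6.94 and 3.05 CPM in EV livers. The part of these transcripts in the results of EM replicate 1 was not tested.

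Marker lists of other liver cell types gave no calls. The summed level of 17 macrophage markers was 3419, 2413, 2561 and 2088 CPM in EM livers, against 2944, 2871, 3009 and 2561 CPM in EV livers (median log2 fold change -0.14). For 15 sinusoidal endothelial markers the sums were 470, 388, 425 and 350 CPM in EM livers, against 447, 465, 491 and 435 CPM in EV livers (median -0.16). EM replicate 1 was the highest EM library in both lists. The 16 stellate, 7 cholangiocyte, 11 lymphoid and neutrophil, 5 red cell and 2 pancreatic acinar markers had medians of 0.14, -0.21, -0.29, -0.050 and -0.040. Of the cholangiocyte markers listed, Krt7 and Cftr are among the 6 not analysed here, and Krt19 had 0.666 to 1.5 CPM in EM livers and 0.681 to 1.75 CPM in EV livers. The 10 hepatocyte markers had a median of 0.39 with none called. The part of these shifts in the calls above was not tested, and in bulk tissue fewer cells of a type and less RNA per cell cannot be told apart.

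The effect of MI763F with EE was set against its effect without EE by the interaction of the 4 groups. It passed for 17 genes (0.132%; 1759, or 13.6%, at an unadjusted p under 0.05), 13 of them (0.101%) with the higher fold change in EE livers and 4 (0.031%) with the lower. Of the 17, 12 had risen and 1 had fallen in EM against EV. The Sult2a genes lead: the difference of effects was 2.89 ± 0.28 for Sult2a5 (adjusted p = 0.000415), 2.63 ± 0.31 for Sult2a6 (0.00188), 2.28 ± 0.32 for Sult2a2 (0.00988), 3.91 ± 0.58 for Sult2a1 (0.0139) and 2.34 ± 0.38 for Sult2a4 (0.0223). Without EE these 5 genes had CM minus CV log2 fold changes between 0.13 and 0.36, none of which passed. Slc22a26, Prodh2 (a hydroxyproline dehydrogenase), Ces1c and Ces1d differed in the same way, by 3.34 ± 0.49, 1.09 ± 0.16, 1.2 ± 0.19 and 1.62 ± 0.27 (adjusted p = 0.0122, 0.0122, 0.0179 and 0.0223). Ttc36, Gchfr, Nlrp6 and Fuom, named after their values were seen, complete the 13.

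Cyp2b10 showed no such difference that the test could detect (-0.14 ± 0.35, adjusted p = 0.897). ENSG00000160868 likewise did not pass (0.50 ± 0.49, adjusted p = 0.701), which averaged 3164 ± 1000 CPM in CM livers and 1242 ± 585.9 CPM in CV livers, a difference that itself did not pass (adjusted p = 0.182). Ugt1a1 and Cyp2c37 had differences of 1.05 ± 0.23 and 1.52 ± 0.31 and missed the threshold (adjusted p = 0.0737 and 0.0615). In the other direction St5 averaged 23.4 ± 2.08 CPM in EM livers and 25 ± 2.4 CPM in EV livers, and 33.3 ± 3.9 CPM in CM livers and 12.9 ± 2.28 CPM in CV livers. Its effects differed by -1.47 ± 0.18 (adjusted p = 0.00248). Gm20075, Myl12b and Ufm1 were the other 3 with the lower fold change in EE livers.

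Without EE, MI763F raised 12 genes and lowered none (0.0929% and 0%; 1362 genes, 10.5%, at an unadjusted p under 0.05, all by edgeR). Cyp2b10 was the 1 gene called in both comparisons, which is 0.459% of the genes called with EE and 8.33% of those called without. Of the 195 genes that rose with EE, 180 had a CM minus CV log2 fold change between -0.5 and 0.5, and the median of the 195 was -0.013. The median of all genes was -0.003, and the share of all genes in that range was not computed. The interaction was called for 12 of the 195. The calls of Sult2a1, Sult2a2, Sult2a5, Sult2a6, Slc22a26, Prodh2, St5 and Gm20075 in the interaction held with each of the 16 libraries left out. Those of Ces1c (without EV replicate 2), Sult2a4 (without EM replicate 3, EM replicate 4, EV replicate 1 or CM replicate 1) and Ces1d (without EM replicate 3, EM replicate 4, EV replicate 1, EV replicate 2 or CM replicate 1) were lost, with adjusted p up to 0.0553, 0.0661 and 0.085. Ttc36, Gchfr, Nlrp6, Fuom, Myl12b and Ufm1 passed in 9, 9, 10, 4, 13 and 5 of the 16 fits (highest adjusted p from 0.0778 to 0.123), and each was lost without EV replicate 1 and without CM replicate 1. The number of genes called ran from 10 (without EM replicate 4, EV replicate 1 or EV replicate 2) to 208 (without EM replicate 1), with 95 without CM replicate 4.

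**Figure D5:**
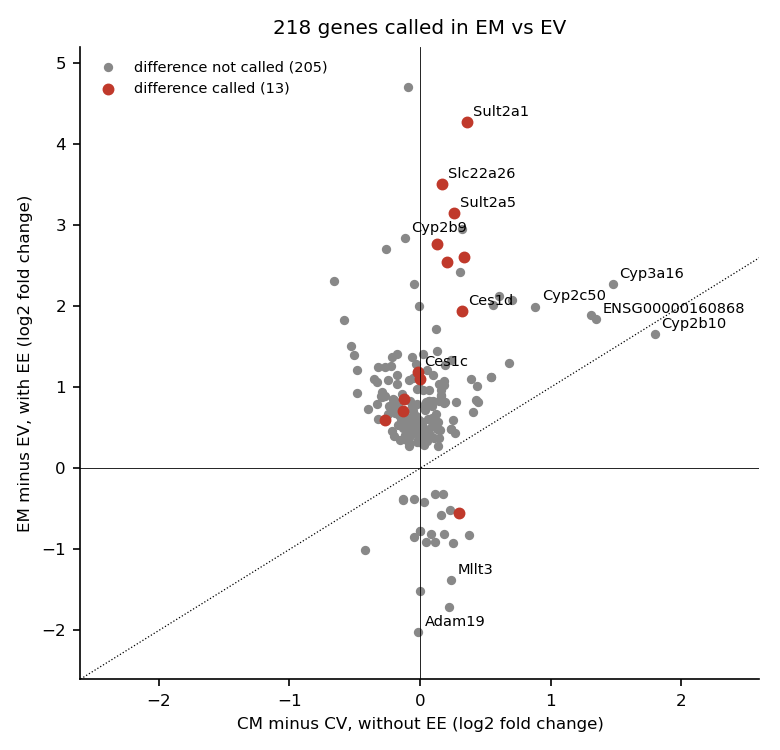
The 218 genes called in EM against EV, by their CM minus CV log2 fold change (without EE, x axis) and their EM minus EV log2 fold change (with EE, y axis); red points are the 13 whose difference of effects passed, and the dotted line marks equal effects. Most genes that rose stand near 0 on the x axis, where the median of all genes also lies (-0.003), while Cyp2b10 lies close to the line.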

How the data were processed

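Liver poly(A) RNA of 16 libraries was sequenced by the study. The deposited table holds estimated counts per gene, written as whole numbers by the authors; per the submitters' processing notes the build was GRCm39 and the tools were STAR and Salmon, with versions and settings not given in the sources used here. Among genes at 0 in at least 1 library, the smallest value above 0 had a median of 101.5 for 150 genes with exons under 150 bases and of 1 for 49 genes over 4000 bases, so the values had been rescaled by gene length, and levels are compared within a gene. Counts were rounded to whole numbers only for the DESeq2 alternative, which changed none.

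Computed here: TMM factors, filterByExpr, and edgeR (4.0.16, R 4.3.3) quasi-likelihood tests with robust dispersions, 1 coefficient per group and 12 residual degrees of freedom over all 16 libraries, adjusted by Benjamini-Hochberg; SEs are the log2 fold change over the root of the F statistic. Symbols came from GENCODE M21 for 12692 of 13006 identifiers. DESeq2 (1.42.0), limma (3.58.1), other scalings and filters, a fit of the 8 EE libraries and each library left out were alternatives. Start windows were aligned with Biopython (1.88). Library totals set the precision of low values; their spread is given with the libraries.

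Genes were named by rule: of those called with groups apart and a log2 CPM averaging 1 or more, the 25 largest rises and 15 largest falls; up to 6 called and 3 uncalled members per list by p, a set of bile acid and receptor genes, and up to 10 interaction genes by p; exceptions are stated. Members and lists were chosen with earlier results of these data known. No replicate number was used to pair libraries. The 5 mg/kg dose named in the labels was not analysed here, and 1 gene of the lists is counted but not reported by name.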

Additional observations from a re-analysis of the deposited data

Results flagged for a closer look

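The effect of MI763F differed between livers with and without EE, by the interaction test of the edgeR fit, for these genes described above: the difference of log2 fold changes, (EM minus EV) minus (CM minus CV), was 3.91 for Sult2a1, 2.28 for Sult2a2, 2.34 for Sult2a4, 2.89 for Sult2a5 and 2.63 for Sult2a6. It was 3.34 for Slc22a26, 1.2 for Ces1c, 1.62 for Ces1d and 1.09 for Prodh2. In the negative direction it was -1.47 for St5 and -0.85 for Ufm1.

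Single libraries stood far from the other 3 of their group in 30 of 480 combinations of a printed gene and a group, by a gap over Dixon's critical share of the group's range. Chance gives about 1 in 20. EM replicate 1 accounts for 6 of the 8 in EM livers. In EM replicate 1 the low values were those of Acss3 (2.19 CPM against 4.97 to 5.25), Hsd17b13 (52.9 CPM against 103 to 106), Slc47a1 (29.2 CPM against 42.2 to 44.3) and Sult2a4 (11.2 CPM against 28.1 to 30.9). In EM replicate 1 the high values were those of Kcne3 (1.98 CPM against 1.02 to 1.13) and Plk1 (6.46 CPM against 1.64 to 1.88). In EM replicate 2 the high value was that of Cyp3a13 (104 CPM against 80.2 to 82.6). In EM replicate 3 the high value was that of Ugt3a2 (106 CPM against 87.5 to 90).

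In EV replicate 1 the high value was that of Krt79 (167 CPM against 112 to 116). In EV replicate 2 the low values were those of Inmt (53 CPM against 58.6 to 59.5) and Sult2a4 (2.38 CPM against 4.71 to 5.04). In EV replicate 2 the high value was that of Adam19 (12.2 CPM against 6.67 to 7.31). In EV replicate 3 the high values were those of Fmo1 (92.9 CPM against 66.9 to 70.5), Sod2 (180.1 CPM against 160.3 to 161) and Sult2a-ps1 (0.423 CPM against 0 in the others).

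In CM replicate 1 the low values were those of Abcc2 (175 CPM against 194 to 198) and Cox4i1 (675 CPM against 766 to 778). In CM replicate 2 the low value was that of Cyp2e1 (2364 CPM against 4890 to 5098). In CM replicate 2 the high value was that of Cyp2b10 (1691 CPM against 764 to 919.8). In CM replicate 3 the high value was that of Ugt1a1 (932 CPM against 728 to 757). In CV replicate 1 the low values were those of Acss3 (9.75 CPM against 14.3 to 14.6), Akr1d1 (97.2 CPM against 153 to 162), Slc10a1 (597 CPM against 685 to 702) and Sod2 (170.2 CPM against 203 to 208). In CV replicate 1 the high values were those of Slc22a26 (200 CPM against 148 to 156) and Susd1 (9.82 CPM against 6.42 to 6.53). In CV replicate 3 the low value was that of Sult2a1 (1288 CPM against 1620 to 1685). In CV replicate 3 the high value was that of Cyp2e1 (7668 CPM against 5303 to 5632). In CV replicate 4 the low value was that of Apoh (2766 CPM against 3077 to 3127). In CV replicate 4 the high value was that of Slc47a1 (102 CPM against 78.4 to 81).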

How the results depend on the processing

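The EM against EV comparison called 218 genes. It called 127 with library totals in place of composition factors (75 higher, 52 lower) and 559 with DESeq2 (469 higher, 90 lower), and between 36 and 445 with 1 library left out. The difference of effects with and without EE, with 17 genes called, gave 26 with library totals (12 higher), 450 with DESeq2, 26 with limma and 79 with the replicate number as a block, and between 10 and 208 with 1 library left out. The block gave 260 genes for EM against EV. Same-numbered EM and EV libraries did not deviate together (correlations of 0.038, -0.038, 0.0042 and 0.062). Only EM replicate 4 correlated best with its own number. The correlations run over all genes tested, and a factor shared by fewer genes was not tested. CM and CV libraries were not part of that check. Acute phase genes summed to 59880 CPM in CM replicate 1 and 48620 CPM in CV replicate 1. The other CM and CV libraries had 16520 to 29780 CPM. Whether replicate numbers mark a shared factor there was not tested. A fit of the 8 EE libraries alone called 228 genes for EM against EV, 136 of them shared with the 218. No named gene's EM against EV value reversed between the main fit and an alternative where either called it. Beyond the sign check of the 218 genes with 1 library left out, other genes were not checked for reversal. Nor was the difference of effects. The leave-one-out check of Cyp2b10 in CM against CV was added after seeing the data. The cause of these differences was not tested. Library totals ran from 14115384 to 21473227 over all groups.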

Other observations

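Genes of amino acid and pyrimidine breakdown were among those that rose, and all in this paragraph were chosen after their values were seen. Prodh2, hydroxyproline dehydrogenase, had 53.7, 52.4, 69.2 and 71.6 CPM in EM livers, against 25.4, 26.1, 33.9 and 30 CPM in EV livers (1.1 ± 0.12, adjusted p = 0.000287). Pipox, which oxidises pipecolic acid and sarcosine, had 92.9, 112, 135 and 130.3 CPM in EM livers, against 62.2, 63.5, 74.1 and 75 CPM in EV livers (0.78 ± 0.12, adjusted p = 0.00546). Gcdh, of lysine and tryptophan breakdown, had 148, 168, 188 and 187 CPM in EM livers, against 112, 115, 114 and 109 CPM in EV livers (0.62 ± 0.096, adjusted p = 0.00549). The EM libraries lay above the EV libraries in all 3 genes. Dpys, which opens the dihydropyrimidine ring, had 75.5, 106, 124 and 118 CPM in EM livers, against 48.4, 52.4, 59.4 and 56.4 CPM in EV livers (0.97 ± 0.15, adjusted p = 0.00618). Mat1a and Gnmt, which make and use S-adenosylmethionine, rose by 0.95 ± 0.17 and 1.09 ± 0.19, and Hpd, of tyrosine breakdown, by 0.85 ± 0.16. Prodh2, Pipox, Gcdh and Dpys passed in all 8 fits with 1 library left out. Gnmt and Mat1a lost the call without EV replicate 1 or EV replicate 2 (highest adjusted p from 0.0594 to 0.0662). Hpd lost the call without EM replicate 3, EM replicate 4, EV replicate 1 or EV replicate 2 (adjusted p up to 0.0942).

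Genes of the mitochondrial respiratory chain gave small values, mostly positive, and few passed. Of 49 tested genes with Nduf symbols (complex I and its assembly) 48 were positive, 4 passed, and the median was 0.27. In 27 of them EM libraries lay above EV libraries, against 6.56% of all genes. Of 17 tested Atp5 genes (ATP synthase) all were positive and 3 passed (median 0.30), and of 13 tested Cox subunit genes all were positive and 1 passed (median 0.23). Ndufa4 had 534, 613, 604 and 657 CPM in EM livers, against 420.3, 465, 490.5 and 456 CPM in EV livers (0.39 ± 0.086, adjusted p = 0.0352). Cox4i1 had 534, 579.6, 567.8 and 549 CPM in EM livers, against 449, 422, 452 and 414 CPM in EV livers (0.36 ± 0.086, adjusted p = 0.0495). Ndufa4 and Cox4i1 passed in only 1 of those 8 fits, that without EM replicate 1 (highest adjusted p from 0.154 to 0.184). Ndufa4 and Cox4i1 lost the call with library totals in place of composition factors (adjusted p from 0.104 to 0.198). Ndufa4 lost the call in the fit of the 8 EE libraries alone (adjusted p = 0.0556). Cox4i1 lost the call with RLE factors (adjusted p = 0.0532). Cox4i1 lost the call with no filter on low counts (adjusted p = 0.0502). These families were chosen after their values were seen. The median of all genes is -0.0024 with composition factors and -0.11 with library totals, and changes of this size should be read against that shift.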
